A study of Mus musculus with 9 samples.

Results

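The 39 genes described here are MYC, its partner and antagonists, and genes of polyamine synthesis and of ribosome assembly that are commonly listed as MYC targets. They were taken as the lines of the deposited gene table whose symbol is one of the 39 names. Every name was found once among 54052 named lines, and all 39 were among the 12030 genes tested. RNA was sequenced in 9 labelled libraries from RAW264.7, a cell line of mouse macrophages, of wild type genotype per the labels. The first group is titled BMC+L, and its treatment label gives culture on a BMC membrane stimulated by LIPUS, read as low-intensity pulsed ultrasound. It is written BMC+LIPUS below. The second group, titled BMC, was cultured on the BMC membrane per its label, and the third is the blank control. Each group has 3 libraries. The series title speaks of ultrasound, piezoelectric membranes and macrophage polarization, but the labels do not say what BMC stands for, how long the cells were exposed or how the control cells were cultured. Ultrasound without the membrane is not among the labelled groups. Whether libraries of 1 group stem from separate cultures is not stated, and the p-values below therefore measure the spread between libraries, which may be technical.

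MYC is a transcription factor that binds DNA as a dimer with MAX, commonly at the sequence CACGTG, known as the E-box. MAX also pairs with the MXD proteins, MXI1 and MNT, and those dimers repress many of the same genes. Among the best known targets of MYC are ornithine decarboxylase, the enzyme that starts polyamine synthesis, and the nucleolar proteins that transcribe, cut, modify and assemble ribosomal RNA.

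Each library held between 12675541 and 16574453 counts on named genes. The 39 genes took 1.31% to 1.37% of the counts in BMC+LIPUS libraries, 1.31% to 1.40% in BMC libraries and 1.214% to 1.247% in control libraries. Of 10 macrophage markers, 9 passed the filter, and their summed level was 7425 to 7672 FPKM in BMC+LIPUS, 7233 to 7983 FPKM in BMC and 6597 to 7376 FPKM in control libraries. Lyz2 made up most of that sum, and single markers differed in direction. Cd14 averaged 1064 ± 43.9 FPKM in BMC+LIPUS, 1034 ± 71.5 in BMC and 623 ± 49.0 in control libraries, and Spi1 averaged 167 ± 2.66 FPKM in BMC+LIPUS, 161 ± 4.29 in BMC and 132 ± 12.1 in control libraries (SD, n = 3 each). Cd68 averaged 472 ± 33.2 FPKM in BMC+LIPUS, 474 ± 24.6 in BMC and 576 ± 30.6 in control libraries, and Ptprc averaged 15.4 ± 0.921 FPKM in BMC+LIPUS, 16.4 ± 1.11 in BMC and 20.6 ± 1.70 in control libraries (SD, n = 3 each). Their part in the results below was not tested. Mertk, the other macrophage marker, was at most 0.16 FPKM in any library. No marker of T cells, B cells, fibroblasts, epithelium or endothelium passed the filter, and none of these lists summed to more than 0.25 FPKM in a library. FPKM are the authors' deposited values, in which fragments are scaled by transcript length and by the library's total. In bulk RNA, fewer cells that make a transcript and less of it per cell cannot be told apart.

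Against control, 20 of the 31 nucleolar transcripts were called higher in BMC+LIPUS libraries and 17 in BMC libraries, beside 21% and 17.1% of all genes tested. The MYC antagonist transcripts Mxd4 and Mnt were called lower in both, while the antagonists Mxd1 and Mxi1 were not called. Mga, a MAX partner outside the 39, was called higher in both (log2 change 0.47 in BMC+LIPUS and 0.30 in BMC). Nolc1 was the nucleolar transcript called lower, in BMC+LIPUS. Summed over the 39 genes, the level was 3151 ± 91.9 FPKM in BMC+LIPUS, 3184 ± 105 FPKM in BMC and 2864 ± 21.5 FPKM in control libraries (SD, n = 3 each). The rise was shallow, since no gene of the 39 reached a 2-fold change in any comparison. Myc itself was at 1.32 to 3.76 FPKM and did not pass the test in any comparison. Odc1, which encodes ornithine decarboxylase, had the largest log2 change of the 39 in BMC+LIPUS against control.

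The test was edgeR's quasi-likelihood test with p-values adjusted by Benjamini-Hochberg over all genes tested, and a gene is called where its adjusted p was under 0.05. In BMC+LIPUS against control, 21 of the 39 genes were called higher (53.8%), beside 21% of all genes tested. A further 3 were called lower there (7.69%), beside 21.9% of all genes tested, and 15 did not pass. For BMC against control, 18 were called higher (46.2%), beside 17.1% of all genes tested, 2 were called lower (5.13%), beside 18.7%, and 19 did not pass. The median log2 change of the 39 was 0.19 in BMC+LIPUS against control and 0.17 in BMC against control, while the median of all genes tested was 0.01 in both. The shares called are not like for like, since the 39 were measured more precisely. Their median SE was 0.063 in both comparisons, beside 0.095 for all genes tested, so a shallow change is more readily called among them. These comparisons share the control libraries, so their values are given side by side and not as support for each other. The libraries of the groups did not overlap in FPKM for 19 of the 39 genes in BMC+LIPUS against control (48.7%), beside 50.9% of all genes tested. For BMC against control they did not overlap for 22 (56.4%), beside 46.5%.

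The count of calls depended on scaling and on single libraries. Without BMC+LIPUS replicate 3, the number called higher in BMC+LIPUS against control was 13 in place of 21, and the number called lower was 1 in place of 3 without BMC+LIPUS replicate 1. Of the 21 genes called higher there, 11 were called in all 9 fits that left out 1 library and in all 10 other alternatives. Of the 18 called higher in BMC against control, 14 were. With library totals in place of the TMM factors of the main fit, the median log2 change of all genes was -0.06 in BMC+LIPUS against control and -0.05 in BMC against control, and that of the 39 genes was 0.12 with BMC+LIPUS and 0.11 with BMC. The split of calls over all genes, 2525 higher and 2632 lower in BMC+LIPUS against control, became 1868 and 3205 with totals. For BMC against control, 2062 higher and 2252 lower became 1457 and 2761. A small fitted change can therefore differ in sign from the difference in mean FPKM, which is scaled by library totals.

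**Figure D1:**
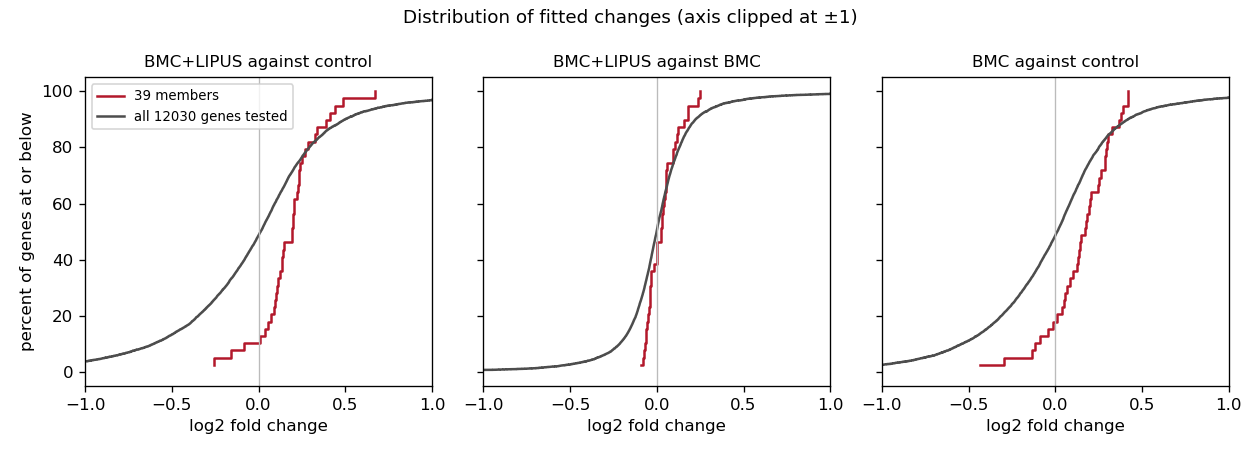
Cumulative distribution of the fitted log2 fold change (x axis, clipped at 1 on either side of 0) over the 39 genes (red) and all 12030 genes tested (grey), as the percent of genes at or below each value, in 1 panel for each comparison, those with control at the sides. In both comparisons with control the red curve crosses its middle at a log2 change of 0.19 with BMC+LIPUS and 0.17 with BMC, against 0.01 for all genes, while in BMC+LIPUS against BMC both curves cross near 0.

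Adding ultrasound to the membrane gave no change that the main test called in this set. Between BMC+LIPUS and BMC, 0 of the 39 genes were called higher, beside 0.0914% of all genes tested, and 0 lower, beside 0.0166%. An unadjusted p under 0.05 was found for 2 of the 39, Odc1 and Mybbp1a, and for 1384 of the 12030 genes tested. DESeq2 called 1 of the 39 higher and edgeR without the filter on low values also called 1, in both cases Odc1. The number called among all genes, 13, was 0 without BMC+LIPUS replicate 1, 2 without BMC+LIPUS replicate 3 or BMC replicate 2, 3 without BMC replicate 1 and 51 without BMC replicate 3. It was 7, 6 and 4 without control replicates 1, 2 and 3, and 16 without BMC+LIPUS replicate 2. The log2 changes of the 39 in this comparison ran from -0.09 to 0.25, with a median of 0.02. The libraries of the groups did not overlap for 7 of the 39 (17.9%), beside 15.8% of all genes tested.

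The MYC network was measured at very different levels. Averaged over the 9 libraries, Max stood at 60.8 FPKM, Mxi1 at 11.65, Mnt at 9.41, Mxd4 at 2.99, Myc at 2.16 and Mxd1 at 1.02 FPKM. Of the 39 genes, Mxd1, Myc and Mxd4 were the lowest in level and Npm1 the highest, at 922 FPKM.

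In replicates 1, 2 and 3, the order used for every triplet below, Myc was at 2.21, 3.19 and 1.63 FPKM in BMC+LIPUS libraries, 3.76, 1.83 and 1.32 in BMC libraries and 1.98, 1.66 and 1.88 in control libraries. These rest on 61 to 110 counts in BMC+LIPUS, 46 to 143 in BMC and 70 to 77 in control libraries. The control libraries lay close together, while BMC replicate 1 and BMC+LIPUS replicates 1 and 2 lay above all of them, and BMC replicate 3 and BMC+LIPUS replicate 3 below all of them. The fitted log2 change was 0.41 (SE 0.30, edgeR adjusted p = 0.299) in BMC+LIPUS against control and 0.39 (SE 0.30, edgeR adjusted p = 0.344) in BMC against control. Without BMC replicate 1 the BMC change was -0.14. Fitted Myc changes of 0.41 and 0.39, each larger than its standard error, were not called. Changes of at least that size could therefore go undetected in these libraries.

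Max, the shared dimer partner, was at 64.06, 57.9 and 63 FPKM in BMC+LIPUS libraries, 62.57, 60.07 and 63.36 in BMC libraries and 57.67, 59.84 and 59.05 in control libraries. BMC libraries all lay above the control libraries, and BMC+LIPUS replicate 2 lay among them. The log2 change was 0.14 in both comparisons with control (SE 0.06 each), with edgeR adjusted p = 0.0741 for BMC+LIPUS and 0.0822 for BMC. Max was called in both without BMC+LIPUS replicate 2, at edgeR adjusted p = 0.0134 for BMC+LIPUS and 0.0442 for BMC.

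Mxd4, a MAX partner that represses transcription, was at 2.63, 3.07 and 2.89 FPKM in BMC+LIPUS libraries, 2.64, 2.44 and 2.54 in BMC libraries and 3.59, 3.55 and 3.6 in control libraries. Every membrane library, with or without ultrasound, lay below every control library. Its level was 1.19-fold lower in BMC+LIPUS than in control (log2 change -0.26, SE 0.08, edgeR adjusted p = 0.0206) and 1.35-fold lower in BMC than in control (log2 change -0.43, SE 0.08, edgeR adjusted p = 0.000812). The BMC+LIPUS call was lost without BMC+LIPUS replicate 1 (edgeR adjusted p = 0.103) and with no filter on low values (edgeR adjusted p = 0.0552). Between BMC+LIPUS and BMC the Mxd4 log2 difference was 0.18 (edgeR adjusted p = 0.448).

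Mnt, a larger MAX partner that also represses, was at 8.51, 8.76 and 8.94 FPKM in BMC+LIPUS libraries, 7.89, 8.78 and 8.94 in BMC libraries and 10.78, 10.75 and 11.37 in control libraries. Here too no membrane library reached the lowest control library. Mnt was 1.20-fold lower in BMC+LIPUS (log2 change -0.26, SE 0.07, edgeR adjusted p = 0.0108) and 1.23-fold lower in BMC (log2 change -0.30, SE 0.08, edgeR adjusted p = 0.0056), each against control. Both calls held in all 19 alternatives.

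The remaining antagonists did not pass the test. Mxd1 was at 1.06, 1.32 and 0.88 FPKM in BMC+LIPUS libraries, 0.86, 1.01 and 0.89 in BMC libraries and 1.17, 0.93 and 1.08 in control libraries, with the 3 groups overlapping. Mxi1 was at 11.51, 12.18 and 12.46 FPKM in BMC+LIPUS libraries, 10.01, 10.66 and 11.87 in BMC libraries and 12.51, 11.55 and 12.1 in control libraries, which also overlapped. Its log2 change was 0.07 (SE 0.07) in BMC+LIPUS against control, a sign that turned with library totals and in limma, and -0.09 (SE 0.07) in BMC against control. Summed over Mxd1, Mxd4, Mxi1 and Mnt, the level was 24.7 ± 0.893 FPKM in BMC+LIPUS, 22.8 ± 1.42 in BMC and 27.7 ± 0.764 in control libraries (SD, n = 3 each).

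**Figure D2:**
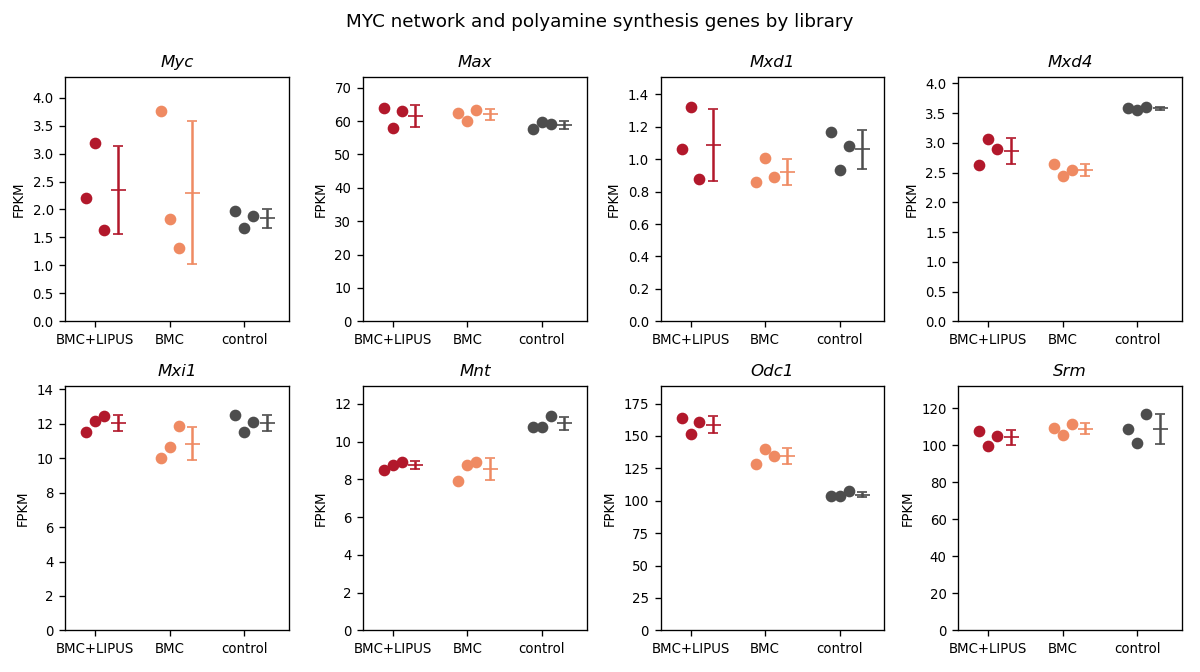
FPKM (y axis, linear from 0, a separate scale for each gene) of the 6 MYC network genes and of Odc1 and Srm in each library (points, replicates 1 to 3 from left to right) of BMC+LIPUS, BMC and control, with the mean ± SD of the 3 libraries to the right of the points. Odc1 forms 3 separate levels, Mxd4 and Mnt sit lower in both membrane groups than in control, and Myc has 1 high library in each membrane group.

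To show where the E-box lies in Mxd4 and Mnt, called lower in both comparisons with control, their promoter windows are printed below. Those of Mybbp1a, which holds both motifs searched, and of Odc1 are printed with them. Nolc1, called lower in BMC+LIPUS only, has no CACGTG in its window. CACGTG also lies in the windows of Max, Nop2, Pes1, Utp20 and Wdr43, which were not called lower and are not printed. All windows are RefSeq's of build GRCm38.p6, from 250 bases before to 50 bases after the annotated start. The gene table was made on GRCm39, so these coordinates do not apply to it. The windows are chr5:34187661-34187960 on the minus strand for Mxd4, chr11:74830674-74830973 on the plus strand for Mnt, chr11:72441077-72441376 on the plus strand for Mybbp1a and chr12:17544623-17544922 on the plus strand for Odc1. Capitals mark CACGTG, which is its own reverse complement, and CACGCG on either strand, a variant also bound by MYC and MAX.
Mxd4: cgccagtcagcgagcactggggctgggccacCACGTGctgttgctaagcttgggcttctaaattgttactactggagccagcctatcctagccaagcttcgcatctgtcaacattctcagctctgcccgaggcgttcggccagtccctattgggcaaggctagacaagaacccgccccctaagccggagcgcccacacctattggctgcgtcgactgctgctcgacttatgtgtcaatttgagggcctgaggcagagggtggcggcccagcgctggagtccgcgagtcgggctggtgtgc
Mnt: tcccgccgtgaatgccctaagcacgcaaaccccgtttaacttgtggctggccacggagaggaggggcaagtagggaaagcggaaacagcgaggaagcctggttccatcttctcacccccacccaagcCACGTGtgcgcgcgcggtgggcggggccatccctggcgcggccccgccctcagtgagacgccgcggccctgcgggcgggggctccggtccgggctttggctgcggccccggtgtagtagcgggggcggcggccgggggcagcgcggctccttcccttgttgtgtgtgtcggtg
Mybbp1a: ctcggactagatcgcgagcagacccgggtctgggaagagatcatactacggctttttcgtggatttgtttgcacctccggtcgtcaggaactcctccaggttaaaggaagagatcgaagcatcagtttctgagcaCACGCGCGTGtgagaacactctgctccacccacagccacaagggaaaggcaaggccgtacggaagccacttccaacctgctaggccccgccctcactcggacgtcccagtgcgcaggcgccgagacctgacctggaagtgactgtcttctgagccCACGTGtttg
Odc1: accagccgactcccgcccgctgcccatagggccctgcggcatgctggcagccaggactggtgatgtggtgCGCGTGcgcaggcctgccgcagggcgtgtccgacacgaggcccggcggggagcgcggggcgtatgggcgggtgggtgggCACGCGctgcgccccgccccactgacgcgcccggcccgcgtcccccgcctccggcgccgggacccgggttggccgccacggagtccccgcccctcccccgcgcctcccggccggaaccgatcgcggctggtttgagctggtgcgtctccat

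Counted from the annotated start as 0, the first base of CACGTG lies at -219 in Mxd4, at -123 in Mnt and at 40 in Mybbp1a. Mybbp1a also has CACGCG once on each strand, at -115 and -111, and these matches overlap. Odc1 has CACGCG once on each strand at -180 and -101, and no CACGTG in this window. Of the 39 genes, 32 had a window, and 8 of those (25%) held CACGTG, beside 12.2% of the 8376 tested genes with a window. By call in BMC+LIPUS against control, CACGTG was in the windows of 2 of 3 genes called lower, 3 of 17 called higher and 3 of 12 not called. By call in BMC against control, it was in those of 2 of 2 called lower, 3 of 15 called higher and 3 of 15 not called. CACGCG was in 10 of the 32 (31.25%), beside 20.9% of tested genes with a window, and those were 1 called lower, 7 called higher and 2 not called in BMC+LIPUS against control, and 0, 5 and 5 in BMC against control. A match of letters is a description of the window and not evidence of binding in these cells.

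Odc1, Mybbp1a, Nop56, Nop58 and Rrp9 were the 5 genes of the 39 whose libraries did not overlap between any of the 3 pairs of groups. The share of all genes tested that did so was not computed, so this count cannot be read as a trait of the set. Odc1 stood at 163.6, 151.65 and 161.1 FPKM in BMC+LIPUS libraries, 127.97, 140.25 and 134.36 in BMC libraries and 103.51, 103.63 and 107.23 in control libraries. No library of one group reached the range of another. Odc1 was 1.59-fold higher in BMC+LIPUS than in control (log2 change 0.67, SE 0.06, edgeR adjusted p = 2.1e-07) and 1.34-fold higher in BMC than in control (log2 change 0.42, SE 0.06, edgeR adjusted p = 4.33e-05). Between BMC+LIPUS and BMC its log2 difference was 0.25 (SE 0.06). This was not called in the main fit and was called in only 2 of the 19 alternatives, whose adjusted p reached up to 0.44. The edgeR adjusted p was 0.115 in the main fit and 0.0134 with no filter, and DESeq2 gave an adjusted p of 0.016.

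Srm encodes spermidine synthase, a later enzyme of the same pathway. It was at 107.63, 99.87 and 105.29 FPKM in BMC+LIPUS libraries, 109.41, 105.79 and 111.65 in BMC libraries and 108.55, 101.14 and 116.96 in control libraries, and the groups overlapped throughout. The log2 change was 0.01 (SE 0.07) in BMC+LIPUS against control, a sign that turned with library totals, with upper-quartile factors, at a minimum of 5 FPKM and in limma, and 0.06 (SE 0.07) in BMC against control. Taken within each library, which removes the scaling, the log2 ratio of Odc1 to Srm FPKM was 0.607 ± 0.00595 in BMC+LIPUS, 0.300 ± 0.0947 in BMC and -0.0529 ± 0.0813 in control libraries (SD, n = 3 each). An exact two-sided permutation test gave p = 0.1 for each of the 3 pairs of groups, the smallest it can give with 3 against 3, and 0.129 after Benjamini-Hochberg adjustment over the 9 ratio tests run, which also set Max against Mxd4 and Mnt. The ratios were chosen after their values were seen.

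Of the 31 nucleolar genes, 20 were called higher and 1 lower in BMC+LIPUS against control, and 17 higher and 0 lower in BMC against control, at edgeR adjusted p under 0.05. The shares over all genes tested were 21% higher and 21.9% lower in BMC+LIPUS, and 17.1% higher and 18.7% lower in BMC, and the counts by role below stand beside the same shares. At an unadjusted p under 0.05, in either direction, there were 23 of the 31 in BMC+LIPUS against control, beside 49.9% of all genes tested, and 21 in BMC against control, beside 44.6%. By role, the genes of ribosomal RNA synthesis and nucleolar structure had 3 of 7 called higher and 1 lower in BMC+LIPUS, and 4 higher and 0 lower in BMC. The core proteins of the small nucleolar ribonucleoproteins, which modify ribosomal RNA, had 2 of 4 called higher in each. Small subunit assembly genes had 5 of 7 called higher in BMC+LIPUS and 4 in BMC. Large subunit assembly genes had 10 of 13 called higher in BMC+LIPUS and 7 in BMC. None of the last 3 roles had a gene called lower.

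**Figure D3:**
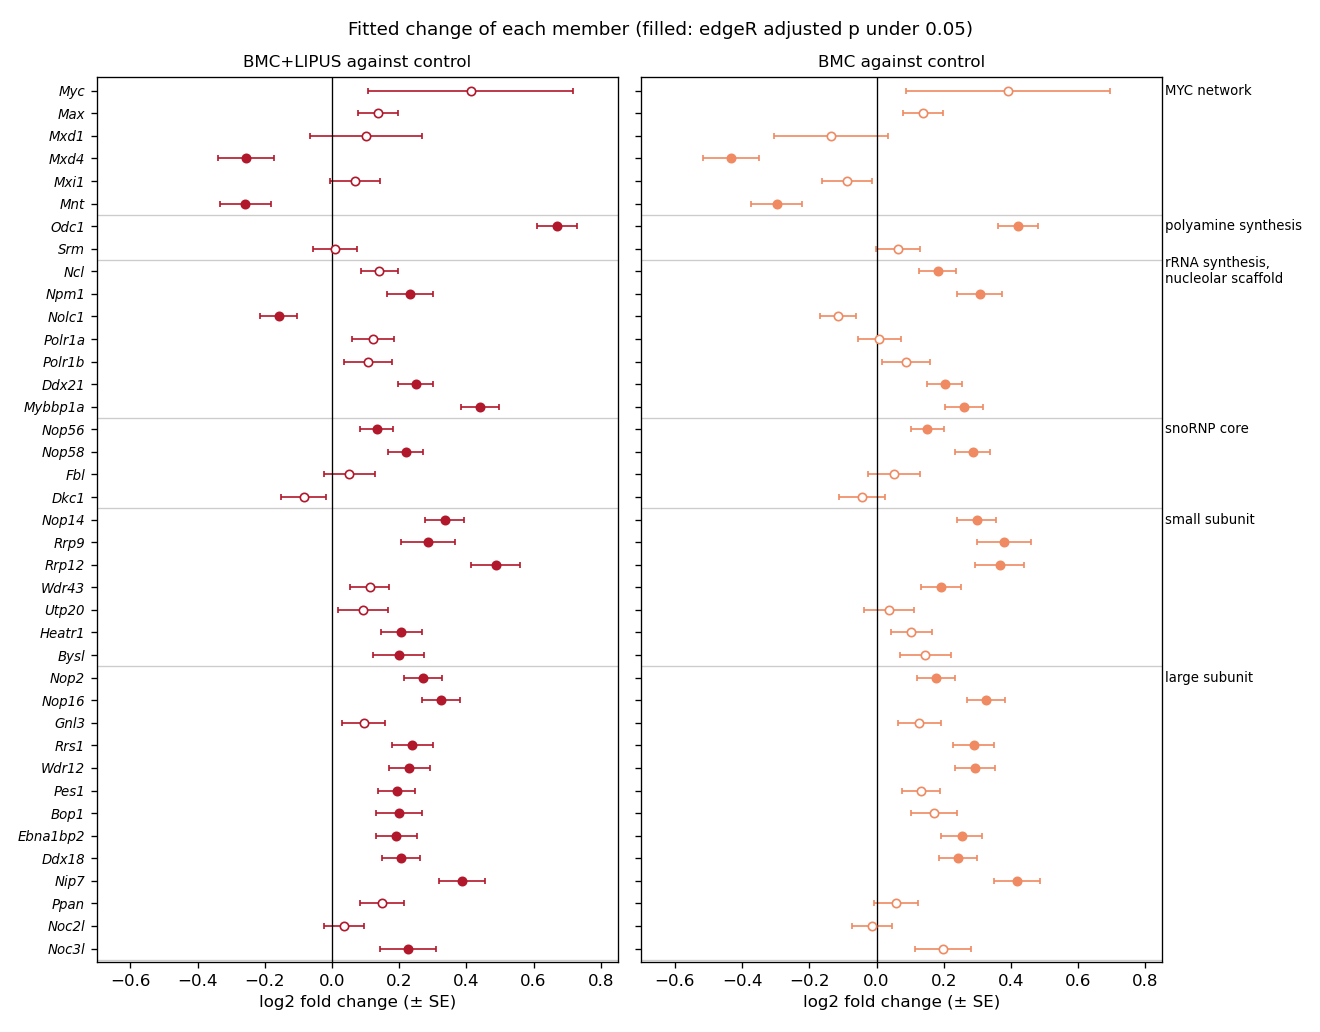
Fitted log2 fold change (x axis, point) ± SE (bar) of each of the 39 genes in BMC+LIPUS against control (left) and BMC against control (right), in the order of their roles; filled points have an edgeR adjusted p under 0.05. Most nucleolar genes lie right of 0, Mxd4 and Mnt lie left of it in both panels, and the bars of Myc are the longest.

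Npm1, nucleophosmin, an abundant protein of the outer nucleolus, was at 995.37, 845.57 and 970.62 FPKM in BMC+LIPUS libraries, 951.77, 959.03 and 1061.62 in BMC libraries and 853.62, 841.27 and 817.64 in control libraries. BMC libraries all lay above control, while BMC+LIPUS replicate 2 lay within the control range. Its log2 change was 0.23 (SE 0.07, edgeR adjusted p = 0.0111) in BMC+LIPUS against control and 0.31 (SE 0.07, edgeR adjusted p = 0.00226) in BMC against control. The BMC+LIPUS call was lost without BMC+LIPUS replicate 1 (edgeR adjusted p = 0.0632) and without BMC+LIPUS replicate 3 (edgeR adjusted p = 0.0542). In limma it was lost on log2(FPKM + 1) (adjusted p = 0.0919) and on log2(FPKM + 0.1) (adjusted p = 0.0904). Npm1 has many processed pseudogenes, so its counts are uncertain where reads could be shared with them.

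Ncl, nucleolin, which binds ribosomal RNA precursors, was at 318.65, 315.93 and 328.89 FPKM in BMC+LIPUS libraries, 316.44, 328.7 and 350.87 in BMC libraries and 315.98, 310.14 and 291.66 in control libraries. BMC lay just above control and BMC+LIPUS replicate 2 lay within it. The log2 change was 0.14 (SE 0.06, edgeR adjusted p = 0.0523) in BMC+LIPUS against control and 0.18 (SE 0.06, edgeR adjusted p = 0.0176) in BMC against control. The BMC call was lost without BMC replicate 3 (edgeR adjusted p = 0.111) and without control replicate 3 (0.0677). Library totals (edgeR adjusted p = 0.0727), a minimum of 5 FPKM (0.0518) and limma also lost it. The BMC+LIPUS change was called without BMC+LIPUS replicate 2 (edgeR adjusted p = 0.0311), BMC replicate 1 (0.0464) or BMC replicate 3 (0.0441). That change was also called with no filter (edgeR adjusted p = 0.0288) and with the replicate block (0.0427). Npm1 and Ncl made up 40.5% of the summed FPKM of the 39 genes.

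Mybbp1a encodes a nucleolar protein that binds MYB and acts in ribosomal RNA synthesis and processing. It was at 102.66, 112.97 and 107.43 FPKM in BMC+LIPUS libraries, 90.95, 100.54 and 94.67 in BMC libraries and 82.72, 82.98 and 83.87 in control libraries. Like Odc1, it formed 3 levels that did not overlap. Mybbp1a had a log2 change of 0.44 (SE 0.06, edgeR adjusted p = 1.21e-05) in BMC+LIPUS against control and 0.26 (SE 0.06, edgeR adjusted p = 0.0019) in BMC against control. Between BMC+LIPUS and BMC it was 0.18 and was not called (edgeR adjusted p = 0.228).

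Ddx21, an RNA helicase of the nucleolus, was at 124.12, 128.59 and 126.97 FPKM in BMC+LIPUS libraries, 120.68, 122.94 and 125.72 in BMC libraries and 113.48, 115.09 and 106.81 in control libraries. Both membrane groups lay above control and overlapped each other. Ddx21 had a log2 change of 0.25 (SE 0.05, edgeR adjusted p = 0.00109) in BMC+LIPUS against control and 0.20 (SE 0.05, edgeR adjusted p = 0.00621) in BMC against control.

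Nolc1 went the other way. It encodes a nucleolar phosphoprotein that escorts small nucleolar ribonucleoproteins, and it was at 81.26, 82.75 and 85.14 FPKM in BMC+LIPUS libraries, 83.79, 86.07 and 88.23 in BMC libraries and 97.44, 96.83 and 97.81 in control libraries. All membrane libraries lay below all control libraries. Nolc1 had a log2 change of -0.16 (SE 0.05, edgeR adjusted p = 0.0251) in BMC+LIPUS against control, a call lost without BMC+LIPUS replicate 1 (edgeR adjusted p = 0.086), BMC+LIPUS replicate 2 (0.0541) or control replicate 1 (0.058), and with no filter (0.0575). With BMC against control it was -0.11 (SE 0.05, edgeR adjusted p = 0.111). Nolc1 was called there with library totals (edgeR adjusted p = 0.0102), with upper-quartile factors (0.0316) and with a minimum of 5 FPKM (0.0239). Limma also called it, on log2(FPKM + 1) (adjusted p = 0.00727) and on log2(FPKM + 0.1) (adjusted p = 0.00748).

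The catalytic subunits of RNA polymerase I did not pass the test in either comparison. Polr1a, the largest subunit, averaged 12.9 ± 0.617 FPKM in BMC+LIPUS, 11.98 ± 0.607 in BMC and 12.4 ± 0.502 in control libraries (SD, n = 3 each). Polr1b, the second subunit, averaged 15.2 ± 0.845 FPKM in BMC+LIPUS, 15.0 ± 0.795 in BMC and 14.8 ± 0.972 in control libraries (SD, n = 3 each). The standard errors of their log2 changes were 0.06 and 0.07. Polr1a had a log2 change of 0.12 in BMC+LIPUS against control that was not called (edgeR adjusted p = 0.129). Changes of about that size could therefore be missed.

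Among the small nucleolar ribonucleoprotein proteins, Nop58, a core protein of the box C/D class that guides ribosomal RNA methylation, was at 42.48, 41.18 and 42.25 FPKM in BMC+LIPUS libraries, 44.08, 44.44 and 43.93 in BMC libraries and 38.21, 38.85 and 36.46 in control libraries. The BMC libraries were highest, the BMC+LIPUS libraries lay between, and no groups overlapped. Its log2 change was 0.22 (SE 0.05, edgeR adjusted p = 0.00268) in BMC+LIPUS against control and 0.29 (SE 0.05, edgeR adjusted p = 0.000437) in BMC against control. Nop56, its partner, was called higher in both comparisons by a log2 change of 0.13 in BMC+LIPUS (edgeR adjusted p = 0.0413) and 0.15 in BMC (edgeR adjusted p = 0.0259), but neither call held throughout. The BMC+LIPUS call of Nop56 was lost without BMC+LIPUS replicate 1 or 3 or any 1 BMC or control library, and the BMC call without BMC replicate 2 or 3 or any 1 control library. Both were also lost with library totals, with upper-quartile factors, in limma, with no filter and with a minimum of 5 FPKM. The BMC+LIPUS call was lost with only the 6 libraries compared as well.

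The enzymes of the same particles were not called. Fbl, fibrillarin, the methyltransferase of the box C/D class, averaged 29.6 ± 2.11 FPKM in BMC+LIPUS, 29.7 ± 1.249 in BMC and 30.0 ± 2.98 in control libraries (SD, n = 3 each). Its log2 change was 0.05 (SE 0.08) in both comparisons, and the sign turned with library totals and in limma. Dkc1, dyskerin, the pseudouridine synthase of the box H/ACA class, averaged 52.0 ± 4.35 FPKM in BMC+LIPUS, 53.9 ± 1.63 in BMC and 58.0 ± 2.06 in control libraries (SD, n = 3 each), with log2 changes of -0.08 in BMC+LIPUS and -0.04 in BMC against control (SE 0.07 each).

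For the small subunit, Rrp12 had the largest log2 change in BMC+LIPUS against control. It encodes a protein known from yeast for the maturation and export of ribosomal subunits, and it was at 18.92, 23.48 and 21.38 FPKM in BMC+LIPUS libraries, 19.27, 19.93 and 19.66 in BMC libraries and 15.57, 15.83 and 16.31 in control libraries. Both membrane groups lay above control, and BMC+LIPUS replicate 2 was the highest library. Rrp12 had a log2 change of 0.49 (SE 0.07, edgeR adjusted p = 5.85e-05) in BMC+LIPUS against control and 0.37 (SE 0.07, edgeR adjusted p = 0.00102) in BMC against control.

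Nop14 and Rrp9 were also called higher in both comparisons. Nop14, a component of the small subunit processome, averaged 42.0 ± 0.646 FPKM in BMC+LIPUS, 41.1 ± 1.22 in BMC and 34.9 ± 1.18 in control libraries (SD, n = 3 each). Rrp9, a protein of the U3 particle that takes part in the early cuts, averaged 17.8 ± 0.756 FPKM in BMC+LIPUS, 19.0 ± 0.451 in BMC and 15.3 ± 1.59 in control libraries (SD, n = 3 each), and its BMC+LIPUS call was lost without control replicate 2 (edgeR adjusted p = 0.0575).

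Other small subunit genes were called in 1 comparison or in none. Heatr1 was called in BMC+LIPUS against control by a log2 change of 0.21 (edgeR adjusted p = 0.0127), and Bysl by 0.20 (edgeR adjusted p = 0.0446). The call of Heatr1 was lost without BMC+LIPUS replicate 3 or control replicate 3, and that of Bysl without any 1 BMC+LIPUS library, control replicate 1 or control replicate 2. Both were also lost with library totals, with upper-quartile factors and in limma. That of Bysl was lost in DESeq2, with no filter and with a minimum of 5 FPKM as well. With BMC, Heatr1 had a log2 change of 0.10 and Bysl of 0.15 against control, and neither was called, although Bysl was called without control replicate 3 (edgeR adjusted p = 0.0445). Wdr43 was called in BMC against control (log2 change 0.19, edgeR adjusted p = 0.0182), a call lost without BMC replicate 3 or control replicate 2, with library totals and in limma. It had a log2 change of 0.11 in BMC+LIPUS against control (edgeR adjusted p = 0.143). Utp20 averaged 18.8 ± 1.57 FPKM in BMC+LIPUS, 18.2 ± 0.796 in BMC and 18.5 ± 1.49 in control libraries (SD, n = 3 each) and was not called.

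Among the large subunit genes, Nip7, which acts in ribosomal RNA processing, was at 34.53, 29.54 and 31.69 FPKM in BMC+LIPUS libraries, 32.35, 32.13 and 33.96 in BMC libraries and 25.25, 25.5 and 26.2 in control libraries. Every membrane library lay above every control library, and the membrane groups overlapped. Nip7 was 1.31-fold higher in BMC+LIPUS (log2 change 0.39, SE 0.07, edgeR adjusted p = 0.000268) and 1.34-fold higher in BMC (log2 change 0.42, SE 0.07, edgeR adjusted p = 0.000183), each against control.

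Nop16, a nucleolar protein known from yeast in large subunit assembly, was at 94.02, 91.47 and 93.66 FPKM in BMC+LIPUS libraries, 93.16, 92.17 and 95.46 in BMC libraries and 77.47, 75.83 and 80.72 in control libraries. The membrane groups were nearly level with each other and above control. The log2 change was 0.32 in BMC+LIPUS (SE 0.06, edgeR adjusted p = 0.000218) and 0.33 in BMC (SE 0.06, edgeR adjusted p = 0.000289), each against control.

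Pes1, Bop1 and Wdr12 encode the 3 proteins of the PeBoW complex, which processes the precursor of large subunit ribosomal RNA. Wdr12 averaged 14.9 ± 0.598 FPKM in BMC+LIPUS, 15.6 ± 0.675 in BMC and 13.3 ± 0.146 in control libraries (SD, n = 3 each) and was called higher in both comparisons in all 19 alternatives. Pes1 averaged 93.5 ± 4.45 FPKM in BMC+LIPUS, 90.0 ± 1.29 in BMC and 85.8 ± 2.51 in control libraries, and Bop1 averaged 60.5 ± 4.22 FPKM in BMC+LIPUS, 59.6 ± 1.65 in BMC and 55.3 ± 3.55 in control libraries (SD, n = 3 each). Both were called in BMC+LIPUS against control (edgeR adjusted p = 0.0103 for Pes1 and 0.029 for Bop1) and not in BMC against control (0.0752 for Pes1 and 0.0655 for Bop1). With BMC+LIPUS, the Pes1 call was lost without control replicate 1, and the Bop1 call without BMC+LIPUS replicate 3, control replicate 1 or control replicate 2. Both BMC+LIPUS calls were also lost with library totals, with upper-quartile factors and in limma. With BMC, Pes1 was called without control replicate 3 (edgeR adjusted p = 0.0488), and Bop1 without control replicate 3 (0.0244) or BMC+LIPUS replicate 3 (0.049). Bop1 was also called there with the replicate block (edgeR adjusted p = 0.0214) and with only the 6 libraries compared (0.0488). No difference between BMC+LIPUS and BMC was called for any of the 3.

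The large subunit genes Nop2, Rrs1, Ebna1bp2 and Ddx18 were called higher in both comparisons as well. Nop2, an RNA methyltransferase, averaged 90.9 ± 3.27 FPKM in BMC+LIPUS, 85.5 ± 4.32 in BMC and 79.1 ± 1.65 in control libraries (SD, n = 3 each). Its BMC call (edgeR adjusted p = 0.0238) was lost without BMC replicate 1 or 3 or control replicate 1 or 2. The BMC call was also lost with library totals, with upper-quartile factors, in limma and with a minimum of 5 FPKM. Its BMC+LIPUS call (edgeR adjusted p = 0.00117) held in all 19 alternatives. Rrs1, which takes part in bringing the 5S particle into the large subunit, averaged 111 ± 4.55 FPKM in BMC+LIPUS, 115 ± 0.56 in BMC and 98.7 ± 5.27 in control libraries (SD, n = 3 each). Ebna1bp2 had a log2 change of 0.19 in BMC+LIPUS and 0.25 in BMC, each against control, and the helicase Ddx18 had 0.21 in BMC+LIPUS and 0.24 in BMC. With BMC+LIPUS, the call of Ebna1bp2 was lost without BMC+LIPUS replicate 1 or 3 or control replicate 1 or 2, and that of Ddx18 without BMC+LIPUS replicate 3 (edgeR adjusted p = 0.0508). Library totals lost both, and upper-quartile factors and limma also lost that of Ebna1bp2.

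Noc3l was called in BMC+LIPUS against control (log2 change 0.23, edgeR adjusted p = 0.0372), a call lost without BMC+LIPUS replicate 2 or 3 or control replicate 3. Library totals, upper-quartile factors, limma and a minimum of 5 FPKM also lost it. In BMC against control Noc3l had a log2 change of 0.20 (edgeR adjusted p = 0.0762). Gnl3, Ppan and Noc2l were not called in either comparison. Gnl3, nucleostemin, a GTP-binding nucleolar protein, averaged 53.8 ± 3.21 FPKM in BMC+LIPUS, 55.3 ± 2.37 in BMC and 52.9 ± 1.63 in control libraries (SD, n = 3 each). Ppan had a log2 change of 0.15 in BMC+LIPUS against control and 0.06 in BMC against control (SE 0.07 each). It was called with BMC+LIPUS when control replicate 3 was left out (edgeR adjusted p = 0.00744) and with the replicate block (0.0451). The sign of the BMC value of Ppan turned with library totals and in limma. Noc2l had a log2 change of 0.04 in BMC+LIPUS, whose sign turned with library totals, upper-quartile factors and in limma, and -0.01 in BMC, each against control (SE 0.06 each).

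**Figure D4:**
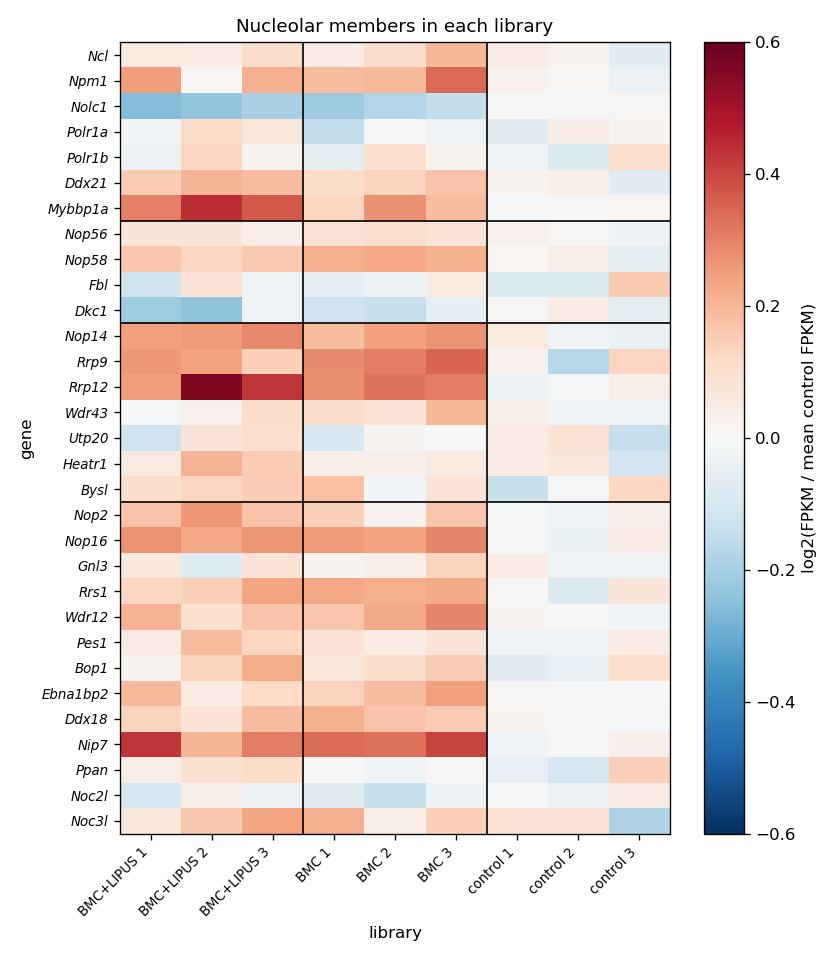
Level of the 31 nucleolar genes (rows, in the order of their roles, separated by lines) in each of the 9 libraries (columns), coloured by log2 of the FPKM over the mean FPKM of the 3 control libraries (red higher, blue lower, scale from -0.6 to 0.6). Rows such as Nip7, Nop16, Nop14 and Mybbp1a are red in all 6 membrane libraries, and the Nolc1 row is blue in all 6.

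Single libraries stood high or low in their group over many of the 39 genes. BMC replicate 3 had the highest FPKM of its group for 23 of the 39 genes, BMC replicate 1 the lowest for 20, and BMC+LIPUS replicate 1 the lowest of its group for 22. The same counts over all genes tested were not made, so these may hold for genes in general. The part of these libraries in the results above is given by the fits without them.

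Further genes of the same pathways were read from 8 lists that hold none of the 39. Of the 174 tested, 73 were called higher (42%) and 21 lower (12.1%) in BMC+LIPUS against control, and 72 higher (41.4%) and 14 lower (8.05%) in BMC against control, at edgeR adjusted p under 0.05. The background shares are those given above for all genes. The median SE of the 174 was 0.068 in both comparisons, beside 0.095 for all genes tested, so these shares are not like for like either. The median log2 change was 0.13 in both comparisons, beside 0.01 for all genes tested. Between BMC+LIPUS and BMC, edgeR called 0 of the 174, and 13 had an unadjusted p under 0.05. DESeq2 called 1 and edgeR without a filter called 2.

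The assembly lists had few genes called lower. Over all genes tested, 21% were called higher and 21.9% lower in BMC+LIPUS against control, and 17.1% and 18.7% in BMC against control. Of 42 further genes of the small subunit processome, 20 were called higher and 1 lower in BMC+LIPUS against control, and 21 and 0 in BMC against control. Utp4, a subunit of that complex, averaged 55.9 ± 3.00 FPKM in BMC+LIPUS, 53.5 ± 4.07 in BMC and 37.9 ± 1.59 in control libraries (SD, n = 3 each), a log2 change of 0.63 in BMC+LIPUS (edgeR adjusted p = 3.38e-06) and 0.56 in BMC (edgeR adjusted p = 1.71e-05), each against control as in all the values that follow. Esf1 had log2 changes of 0.43 in both (edgeR adjusted p = 7.51e-05 in BMC+LIPUS and 0.000111 in BMC). Nop9 was the gene called lower in BMC+LIPUS, at a log2 change of -0.20 (edgeR adjusted p = 0.0286), a call lost without BMC+LIPUS replicate 1 or 2 or control replicate 3, and with no filter.

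Of 40 further large subunit genes, 19 were called higher and 1 lower in BMC+LIPUS against control, and 21 and 0 in BMC against control. Gtpbp4, a nucleolar GTP-binding protein, averaged 29.4 ± 0.723 FPKM in BMC+LIPUS, 30.3 ± 0.471 in BMC and 22.3 ± 0.637 in control libraries (SD, n = 3 each), a log2 change of 0.47 in BMC+LIPUS (edgeR adjusted p = 4.22e-06) and 0.50 in BMC (edgeR adjusted p = 2.93e-06). Mak16 had log2 changes of 0.51 in BMC+LIPUS and 0.46 in BMC. Nol12 was called lower in BMC+LIPUS (log2 change -0.21, edgeR adjusted p = 0.0444), a call lost without BMC+LIPUS replicate 1 or 3 or control replicate 1 or 3. DESeq2, no filter, only the 6 libraries compared and the replicate block also lost it. Of 12 genes of late small subunit maturation, 8 were called higher in BMC+LIPUS and 6 in BMC, with 0 lower. The kinase Riok1 rose by a log2 change of 0.37 in BMC+LIPUS and 0.36 in BMC, Tsr1 by 0.34 in BMC+LIPUS and Ltv1 by 0.32 in BMC. Tsr1 averaged 41.5 ± 1.59 FPKM in BMC+LIPUS, 39.8 ± 0.886 in BMC and 34.5 ± 0.709 in control libraries (SD, n = 3 each). Ltv1 averaged 43.5 ± 1.03 FPKM in BMC+LIPUS, 44.2 ± 1.28 in BMC and 36.9 ± 0.851 in control libraries (SD, n = 3 each).

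The other lists were mixed. Of 15 further genes of small nucleolar ribonucleoproteins and their assembly, 3 were called higher (20%) and 2 lower (13.3%) in BMC+LIPUS against control. The shares of all genes tested there were 21% and 21.9%. In BMC against control, 5 were called higher (33.3%) and 0 lower, beside 17.1% and 18.7% of all genes tested. Zfp593 led this list, at 3.41 ± 0.472 FPKM in BMC+LIPUS, 3.05 ± 0.291 in BMC and 1.81 ± 0.450 in control libraries (SD, n = 3 each), a log2 change of 0.99 in BMC+LIPUS and 0.81 in BMC, and Znhit3 followed, at 0.47 in BMC+LIPUS and 0.46 in BMC. Whether Zfp593 belongs to these particles or their assembly was not tested, yet it is counted among the genes called higher above. Its values, and its part in those shares, should not be read as those of the particles. Rpap3 was called lower in BMC+LIPUS at a log2 change of -0.30, as was Snu13, a box C/D core protein, at -0.16 (edgeR adjusted p = 0.0416). The call of Snu13 was lost without BMC+LIPUS replicate 2 or 3, BMC replicate 2, or control replicate 1 or 3. No filter and only the 6 libraries compared also lost it.

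Of 18 further RNA polymerase I genes, 8 were called higher (44.4%) and 3 lower (16.7%) in BMC+LIPUS against control, beside 21% and 21.9% of all genes tested. In BMC against control, 7 were called higher (38.9%) and 2 lower (11.1%), beside 17.1% and 18.7%. Rrn3, the factor that makes the polymerase competent to start, averaged 25.2 ± 0.353 FPKM in BMC+LIPUS, 23.7 ± 0.56 in BMC and 21.2 ± 0.428 in control libraries (SD, n = 3 each), a log2 change of 0.32 in BMC+LIPUS (edgeR adjusted p = 0.000273) and 0.22 in BMC (edgeR adjusted p = 0.00636). Ubtf, the factor that marks the ribosomal RNA promoter, went the other way, at 30.8 ± 1.86 FPKM in BMC+LIPUS, 32.1 ± 1.24 in BMC and 41.05 ± 0.0819 in control libraries (SD, n = 3 each), a log2 change of -0.35 in BMC+LIPUS (edgeR adjusted p = 0.000179) and -0.29 in BMC (edgeR adjusted p = 0.00102). Polr2e, a subunit shared by the nuclear RNA polymerases, was also called lower, at a log2 change of -0.34 in BMC+LIPUS and -0.31 in BMC. Baz2a, of a complex that silences ribosomal RNA genes, rose in BMC+LIPUS by a log2 change of 0.42, and Top1, a topoisomerase, rose in BMC by 0.33. Baz2a averaged 6.88 ± 0.574 FPKM in BMC+LIPUS, 5.77 ± 0.270 in BMC and 5.37 ± 0.340 in control libraries (SD, n = 3 each). Top1 was similar in both membrane groups, at 26.2 ± 0.619 FPKM in BMC+LIPUS, 25.9 ± 0.817 in BMC and 21.6 ± 1.70 in control libraries (SD, n = 3 each).

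Polyamine genes other than the pair above also moved in both directions. Of 11, 3 were called higher (27.3%) and 3 lower (27.3%) in BMC+LIPUS against control, near the 21% and 21.9% of all genes tested. In BMC against control, 5 were called higher (45.5%) and 2 lower (18.2%), beside 17.1% and 18.7% of all genes tested. Smox, spermine oxidase, averaged 19.99 ± 1.52 FPKM in BMC+LIPUS, 17.7 ± 2.33 in BMC and 11.03 ± 2.01 in control libraries (SD, n = 3 each), a log2 change of 0.93 in BMC+LIPUS (edgeR adjusted p = 6.75e-06) and 0.75 in BMC (edgeR adjusted p = 9.08e-05). Oaz2, an inhibitor of ornithine decarboxylase, rose by a log2 change of 0.42 in BMC+LIPUS and 0.30 in BMC. Amd1, whose enzyme supplies the aminopropyl donor for spermidine, was lower, at 25.8 ± 0.804 FPKM in BMC+LIPUS, 30.2 ± 1.99 in BMC and 37.6 ± 0.870 in control libraries (SD, n = 3 each), a log2 change of -0.47 in BMC+LIPUS (edgeR adjusted p = 2.57e-05) and -0.25 in BMC (edgeR adjusted p = 0.00629). Paox, a polyamine oxidase at or below 1.17 FPKM on average, had log2 changes of -0.87 in BMC+LIPUS and -0.76 in BMC. Its BMC call was lost without BMC replicate 2 or control replicate 2 and in limma on log2(FPKM + 0.1).

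Among 13 further MYC network and regulator genes, 7 were called higher (53.8%) and 2 lower (15.4%) in BMC+LIPUS against control. The shares of all genes tested there were 21% and 21.9%. In BMC against control, 3 were called higher (23.1%) and 2 lower (15.4%), near the 17.1% and 18.7% of all genes tested. Mga, another MAX partner, averaged 7.67 ± 0.541 FPKM in BMC+LIPUS, 6.86 ± 0.290 in BMC and 5.82 ± 0.667 in control libraries (SD, n = 3 each), a log2 change of 0.47 in BMC+LIPUS (edgeR adjusted p = 0.000203) and 0.30 in BMC (edgeR adjusted p = 0.00794). The BMC call of Mga was lost in limma on log2(FPKM + 1) (adjusted p = 0.0793) and on log2(FPKM + 0.1) (adjusted p = 0.0782). Trrap, a cofactor that MYC recruits, rose in BMC+LIPUS by 0.46, and Mlx, a partner of the related MLXIP branch, rose in BMC by 0.24. Trrap averaged 6.21 ± 0.526 FPKM in BMC+LIPUS, 5.07 ± 0.274 in BMC and 4.74 ± 0.268 in control libraries (SD, n = 3 each). Mlx averaged 29.9 ± 1.11 FPKM in BMC+LIPUS, 28.7 ± 0.212 in BMC and 25.3 ± 1.08 in control libraries (SD, n = 3 each). Skp2, a ubiquitin ligase subunit that acts on MYC, was lower, at 6.60 ± 0.125 FPKM in BMC+LIPUS, 7.01 ± 0.528 in BMC and 10.503 ± 0.393 in control libraries (SD, n = 3 each), a log2 change of -0.60 in BMC+LIPUS (edgeR adjusted p = 3.16e-06) and -0.52 in BMC (edgeR adjusted p = 1.9e-05). Usp28, a deubiquitinase that stabilises MYC, had log2 changes of -0.31 in BMC+LIPUS and -0.25 in BMC, and its BMC call was lost without BMC replicate 2 or 3 or control replicate 1 or 2.

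The list of MYC growth and metabolism targets held more genes called lower than higher. Of 23 genes, 5 were called higher (21.7%) and 9 lower (39.1%) in BMC+LIPUS against control, beside 21% and 21.9% of all genes tested. In BMC against control, 4 were called higher (17.4%) and 8 lower (34.8%), beside 17.1% and 18.7%. The median log2 change was -0.01 in both. Eif4a1, a translation initiation helicase, rose by a log2 change of 0.32 in BMC+LIPUS and 0.31 in BMC. Eif4e, the cap-binding protein, rose in BMC by 0.37, and Ldha, lactate dehydrogenase, rose in BMC+LIPUS by 0.30. Neither rise was limited to the membrane group named. Eif4e averaged 51.6 ± 0.922 FPKM in BMC+LIPUS, 54.1 ± 1.34 in BMC and 43.9 ± 0.545 in control libraries (SD, n = 3 each). Ldha averaged 501 ± 10.6 FPKM in BMC+LIPUS, 503 ± 6.73 in BMC and 428 ± 21.2 in control libraries (SD, n = 3 each). Pcna, the sliding clamp of DNA replication, was lower, at 106 ± 6.58 FPKM in BMC+LIPUS, 121 ± 4.68 in BMC and 179 ± 7.60 in control libraries (SD, n = 3 each), a log2 change of -0.69 in BMC+LIPUS (edgeR adjusted p = 4.09e-07) and -0.51 in BMC (edgeR adjusted p = 1.45e-05). Gart, an enzyme of purine synthesis, had log2 changes of -0.60 in BMC+LIPUS and -0.46 in BMC.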

How the data were processed

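Polyadenylated RNA of 9 libraries was sequenced as read pairs, per the labels' protocols, from a kit named as stranded. The authors deposited 1 table with raw counts and FPKM per gene. The submitters' processing notes name cutadapt 1.9.1, HISAT2 2.0.1, HTSeq 0.6.1, DESeq2 with no version and build GRCm39. Annotation, strand setting and filters are not stated there or in the labels, so reads of overlapping or antisense genes, and of pseudogenes, may not be separated. Lines with no gene name (2639 of 56691, 0.0889% to 0.0976% of counts) and 6 columns of 3 unlabelled libraries were not used.

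Counts were fitted with edgeR 4.0.16 in R 4.3.3 (quasi-likelihood test, TMM factors, 1 mean per group) over the 12030 genes whose mean FPKM reached 0.5, with Benjamini-Hochberg adjustment over all of them and calls at 0.05. No pair of libraries of a group was a near copy. The 19 alternatives were other scalings, DESeq2 1.42.0, limma 3.58.1 on log2(FPKM + 1) and log2(FPKM + 0.1), other filters, only the 6 libraries compared, a replicate block, and leaving out each of the 9 libraries. The scripts were tested on simulated counts. Values per library are given for the MYC network, Odc1 and Srm, the 3 nucleolar genes with the smallest p per direction and comparison, and the 3 highest in FPKM. Of the further lists, the 2 called genes with the smallest p per direction in each comparison with control are named, 175 of 177 listed names were found, and 174 were tested. Members and lists were chosen with earlier results of these data known. Promoter windows are RefSeq's, of GRCm38.p6; those of Myc, Srm, Npm1, Fbl, Rrp12, Rrs1 and Bop1 were not used here. Intervals between libraries cover the spread of these libraries only.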

Additional observations from a re-analysis of the deposited data

How the results depend on the processing

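Across the 19 alternatives, the number of the 39 genes called higher ran over 13 to 23 for BMC+LIPUS and over 14 to 19 for BMC, each against control. With BMC+LIPUS, library totals and both limma fits gave 13 and leaving out 1 library gave 13 to 21. The number called lower in BMC+LIPUS against control was 1 with no filter and 1 to 3 with 1 library left out. In BMC+LIPUS against BMC, 13 genes of 12030 were called, and DESeq2 called 73, limma 0 with a pseudocount of 1 and 1 with 0.1, no filter 234, a minimum of 5 FPKM 8, the 6 libraries alone 2, the replicate block 53 and the fits without 1 library 0 to 51. Odc1 was called there by DESeq2 and with no filter, 1 of the 39 each time, and of the further genes DESeq2 called 1, no filter 2 and the replicate block 1. Deviations of 9 same-numbered library pairs correlated at -0.0267 to 0.162, only 1 above 0.1, so the numbers were not taken to pair samples. With the replicate block, 5311 genes were called with BMC+LIPUS and 4497 with BMC, each against control, with 23 and 19 of the 39 genes higher and 3 and 2 lower.

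Signs turned only for genes that were not called. With BMC against control this held for Fbl (log2 change -0.0113 with library totals, -0.0079 and -0.008 in limma with pseudocounts of 1 and 0.1), for Polr1a (-0.0285 with upper-quartile factors, -0.0555 with totals, -0.0517 and -0.0555 in limma, -0.0303 with a minimum of 5 FPKM, -0.0278 to 0.057 with 1 library left out), for Utp20 (-0.026, -0.0221, -0.0231 and -0.0011 for totals, limma and the minimum, -0.0278 to 0.082 with 1 left out) and for Ppan (-0.0051, -0.0016 and -0.0016 for totals and limma). With 1 library left out, Noc2l gave -0.0452 to 0.0151 and Myc -0.1443 to 0.6539, and Myc in BMC+LIPUS against BMC gave -0.2415 to 0.5567. In BMC+LIPUS against control, totals and limma gave Mxi1 -0.0006, -0.0004 and -0.0004. Upper-quartile factors, totals and limma gave Fbl -0.0022, -0.0171, -0.0144 and -0.0147, Noc2l -0.018, -0.0336, -0.0333 and -0.034, and Srm -0.0457, -0.0617, -0.0602 and -0.0607, with -0.0216 for Srm at the minimum and -0.0481 to 0.0591 with 1 left out. Mxd1 gave -0.0414 to 0.2213 with 1 left out. The causes were not tested. The Myc values rest on 46 to 143 counts in a library.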
